A study of Rattus norvegicus with 35 samples.

Results

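Liver expression in 6 male Sprague Dawley rats dosed at 5.50 mg/kg with the flame retardant component TBB, a brominated ester of benzoic acid, was set against that in 12 rats given the lowest doses, 0.05 mg/kg (n = 6) and 0.55 mg/kg (n = 6), pooled as 1 group. The arrays were chosen by the dose in their titles alone, 18 of the 35 arrays in the series, and the question was whether a response, first of all of Cyp1a1 and Cyp1a2, begins below 55 mg/kg. Rats of every group were 7 weeks old at the start, were gavaged with TBB in corn oil at 5 ml/kg on 5 consecutive days and were necropsied 1 day after dosing ended. The left liver lobe supplied the RNA. Both sides of the comparison were therefore dosed with TBB, and it does not measure a difference from undosed rats. Groups at 55 and 550 mg/kg (n = 6 each) and corn oil vehicle (n = 5) were used to show levels at other doses and to choose a list of responding genes. Each array gave 1 log2 expression value per probe set, on a scale where a difference of 1 is a 2-fold change.

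Cyp1a1 and Cyp1a2 encode cytochrome P450 enzymes that oxidise planar aromatic compounds, and their transcription is switched on by the aryl hydrocarbon receptor (AhR). The AhR waits in the cytosol bound to HSP90 and p23, moves to the nucleus when it binds a ligand, pairs with ARNT and binds xenobiotic response elements with the core GCGTG near its target genes. In unexposed rat liver Cyp1a1 is known as a nearly silent gene, while Cyp1a2 is transcribed constitutively, mostly in the hepatocytes around the central vein.

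Proximal promoters of AhR targets are printed to show what the measured genes carry next to their start sites. They are RefSeq sequences of the GRCr8 assembly, from 250 bases before to 50 bases after the gene's start, 5′ to 3′ on the gene's own strand, with every GCGTG on either strand (GCGTG, or CACGC where the core lies on the other strand) in capitals. The table held a promoter for 7 of the 9 measured AhR targets, with none for Cyp1a1 or Aldh3a1, and 4 of the 7 contained the core. Of the 7, Tiparp (1 copy) and Serpinb2 and Cyp2s1 (0 copies each) are not printed. No 2 matches overlapped in the promoters printed. The core was found in 29.7% of all 33469 promoters of this length. Cyp1a2 (chr8:66978100-66978399, minus strand) contained 0 copies, Nqo1 (chr19:52220218-52220517, minus strand) 1, Cyp1b1 (chr6:21094315-21094614, plus strand) 2 and Ahrr (chr1:30821969-30822268, plus strand) 3. A match is a run of letters and not a measured binding site, and nothing about AhR binding follows from a promoter window without one.
Cyp1a2: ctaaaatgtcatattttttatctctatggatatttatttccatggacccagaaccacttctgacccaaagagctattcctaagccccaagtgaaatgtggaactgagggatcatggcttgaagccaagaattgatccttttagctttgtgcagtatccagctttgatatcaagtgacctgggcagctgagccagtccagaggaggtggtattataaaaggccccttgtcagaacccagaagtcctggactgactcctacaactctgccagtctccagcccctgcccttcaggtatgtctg
Nqo1: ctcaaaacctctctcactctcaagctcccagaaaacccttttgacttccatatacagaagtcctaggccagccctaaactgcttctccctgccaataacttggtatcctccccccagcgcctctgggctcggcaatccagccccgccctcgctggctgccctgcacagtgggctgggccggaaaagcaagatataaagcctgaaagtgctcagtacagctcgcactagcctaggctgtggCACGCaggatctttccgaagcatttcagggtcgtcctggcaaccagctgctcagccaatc
Cyp1b1: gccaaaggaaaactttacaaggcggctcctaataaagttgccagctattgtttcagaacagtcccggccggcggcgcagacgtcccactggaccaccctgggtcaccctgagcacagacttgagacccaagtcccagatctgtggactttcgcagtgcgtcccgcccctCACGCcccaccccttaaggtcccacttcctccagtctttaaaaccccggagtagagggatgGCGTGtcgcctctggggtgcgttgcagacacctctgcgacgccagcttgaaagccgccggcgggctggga
Ahrr: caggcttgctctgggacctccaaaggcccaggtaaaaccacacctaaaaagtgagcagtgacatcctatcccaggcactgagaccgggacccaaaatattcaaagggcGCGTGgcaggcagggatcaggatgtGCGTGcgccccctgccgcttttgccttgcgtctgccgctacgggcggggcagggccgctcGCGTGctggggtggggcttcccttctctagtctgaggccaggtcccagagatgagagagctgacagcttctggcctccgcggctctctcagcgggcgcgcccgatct

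Cyp1a1 stayed near the bottom of its measured range at 5.50 mg/kg. Its log2 values in the 6 arrays at 5.50 mg/kg were 5.46, 4.46, 4.61, 4.92, 4.73 and 4.29, against 4.45, 4.77, 4.05, 4.40, 4.09 and 5.06 at 0.05 mg/kg and 4.35, 4.22, 4.37, 4.68, 4.77 and 4.78 at 0.55 mg/kg. Replicate 1 at 5.50 mg/kg stood above all 12 low-dose arrays and the other 5 lay among them, with 9 of the 12 low-dose arrays above the lowest array at 5.50 mg/kg. The means were 4.75 ± 0.41 (SD, n = 6) at 5.50 mg/kg and 4.50 ± 0.31 (SD, n = 12) at the low doses. Their difference was 0.25 ± 0.16 (SE), a ratio of 1.19 with a 95% interval of 0.948 to 1.48. It did not pass the test (limma unadjusted p = 0.128, Benjamini-Hochberg adjusted p = 0.9997 over all probe sets; two-sided exact permutation p = 0.174). Without replicate 1 at 5.50 mg/kg the difference was 0.10, with a 95% interval of -0.19 to 0.40 (limma unadjusted p = 0.473). Without replicate 6, the lowest array at 5.50 mg/kg, the Cyp1a1 difference was 0.34, with an interval of 0.0047 to 0.67 that left out 0 (limma unadjusted p = 0.0471), and it was still not called after adjustment. Single arrays thus moved the Cyp1a1 difference in both directions. Vehicle arrays averaged 4.53 ± 0.20 (SD, n = 5).

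Cyp1a2 was slightly higher at 5.50 mg/kg, by an amount that the test across all probe sets did not call. Its log2 values were 12.85, 12.93, 12.76, 12.81, 12.85 and 12.88 at 5.50 mg/kg, against 12.68, 12.73, 12.70, 12.52, 12.87 and 12.82 at 0.05 mg/kg and 12.78, 12.70, 12.67, 12.82, 12.78 and 12.73 at 0.55 mg/kg. All 6 arrays at 5.50 mg/kg lay above the median of the low-dose arrays, but the groups overlapped, since 5 of the 12 low-dose arrays lay above the lowest array at 5.50 mg/kg. The means were 12.85 ± 0.058 (SD, n = 6) and 12.73 ± 0.092 (SD, n = 12), a difference of 0.12 ± 0.05 (SE) and a ratio of 1.08 with a 95% interval of 1.01 to 1.16. Taken alone, the gene gave a limma unadjusted p of 0.0267 and a two-sided exact permutation p of 0.0113. Among all probe sets it ranked 666th by p, with a Benjamini-Hochberg adjusted p of 0.9997 in limma. The difference was 0.13 against 0.05 mg/kg alone (limma unadjusted p = 0.0356) and 0.10 against 0.55 mg/kg alone (limma unadjusted p = 0.0884). Its mean level stood at the 99.6th percentile of all probe sets. Vehicle arrays averaged 12.775 (12.677 to 12.846, n = 5), between the low-dose mean of 12.733 and the mean of 12.849 at 5.50 mg/kg. The 4 exact tests run, on these 2 genes for 2 comparisons, could give no p below 5.39e-05 with 18 arrays and 0.00216 with 12. After Benjamini-Hochberg adjustment over these 4 tests alone, the exact permutation p of Cyp1a2 against the low doses was 0.01508. That of Cyp1a1 against the low doses was 0.1745. The other 2 of the 4 tests set 55 against 5.50 mg/kg, and both gave the smallest p that 12 arrays allow. Counting them makes the adjusted value of Cyp1a2 smaller than an adjustment over the low-dose comparison alone would. The adjustment over the 4 tests also does not cover the choice of the comparison, which was made with earlier results of these data known.

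**Figure D1:**
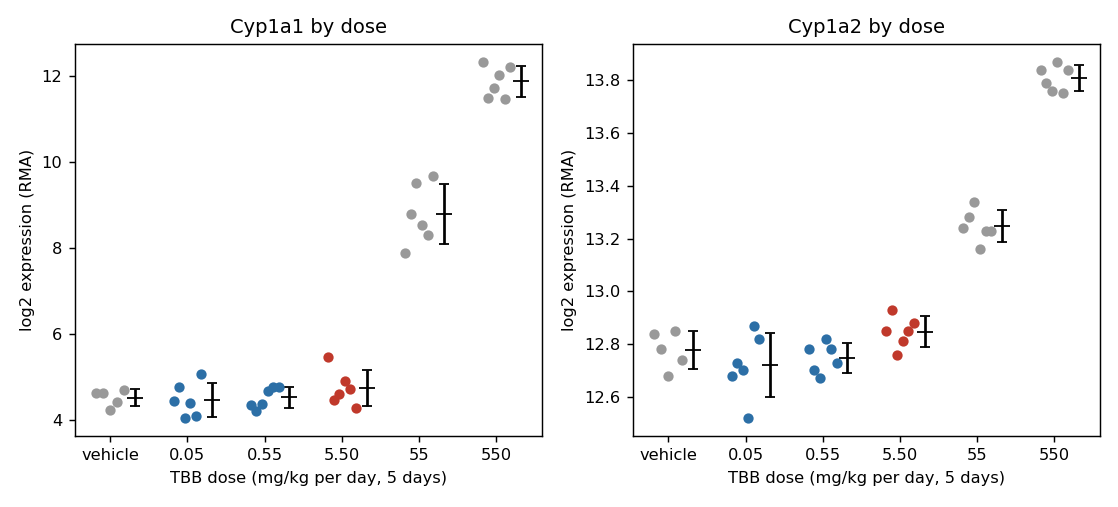
Log2 expression of Cyp1a1 and Cyp1a2 in each liver by TBB dose, with the mean and SD of each group beside its points (n = 5 for vehicle, n = 6 for each dose). Arrays at 5.50 mg/kg are red and those at the doses it was compared with are blue, and both genes overlap between red and blue, while every array at 55 and 550 mg/kg lies above them.

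Both genes were clearly higher at the next dose. Cyp1a1 read 7.89, 8.79, 9.50, 8.53, 8.30 and 9.67 at 55 mg/kg, where the lowest array was above the highest at 5.50 mg/kg. The difference between 55 and 5.50 mg/kg was 4.04 ± 0.24 (SE), a ratio of 16.4 (limma adjusted p = 5.46e-11; exact permutation p = 0.00216, the smallest that 12 arrays allow). Cyp1a2 read 13.24, 13.28, 13.34, 13.16, 13.23 and 13.23 at 55 mg/kg, again with no overlap with 5.50 mg/kg, and rose by a ratio of 1.32, or 0.40 ± 0.05 (SE; limma adjusted p = 0.000746; exact permutation p = 0.00216). These were the only 2 of 31042 probe sets called between 55 and 5.50 mg/kg, 0.00644% of those tested. This contrast is also the test of the difference between the responses at the doses. Against the same 12 low-dose arrays, which both comparisons share, Cyp1a1 was higher by 4.28 at 55 mg/kg and by 0.25 at 5.50 mg/kg, and Cyp1a2 by 0.52 at 55 mg/kg and by 0.12 at 5.50 mg/kg. The upper ends of the 95% intervals at 5.50 mg/kg were 0.57 for Cyp1a1 (0.67 without replicate 6) and 0.22 for Cyp1a2, below the changes seen at 55 mg/kg.

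Across the transcriptome no probe set was called at 5.50 mg/kg. Of 31042 probe sets tested, 0 (0%) passed a Benjamini-Hochberg adjusted p under 0.05 in limma, and the smallest adjusted p was 0.869. At an unadjusted p under 0.05, 1224 probe sets (3.94%) passed, 560 of them higher (1.8%) and 664 lower (2.14%). Differences were positive for 49.0% of probe sets, and their median was -0.0016. The 95% interval had a median half-width of 0.15 and lay wholly between -1 and 1 for 99.7% of probe sets, so for those a 2-fold difference in either direction was outside the interval. Differences smaller than the half-width could not be told from 0 with these numbers of arrays.

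**Figure D2:**
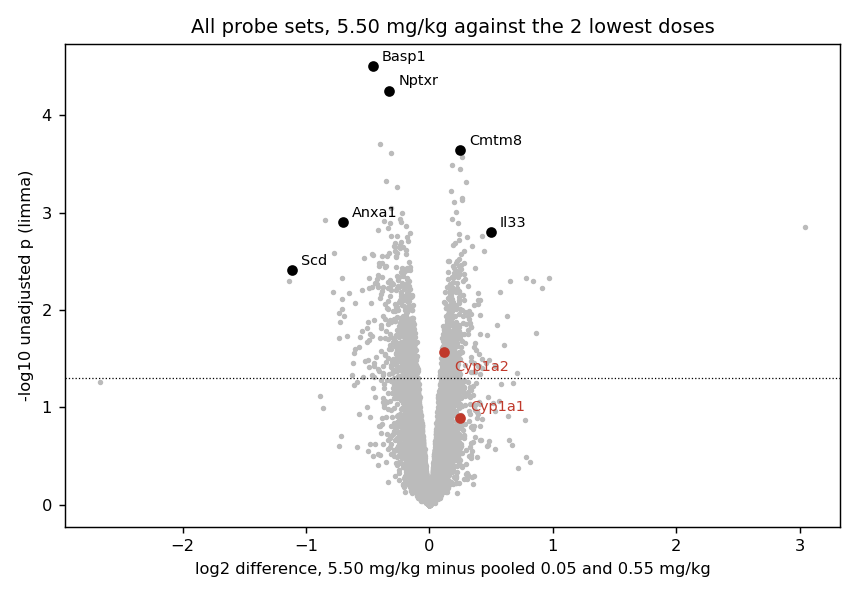
Difference of 5.50 mg/kg from the pooled 0.05 and 0.55 mg/kg arrays (x, log2) against -log10 of the unadjusted limma p (y) for all 31042 probe sets, with the dotted line at an unadjusted p of 0.05. Cyp1a1 and Cyp1a2 (red) lie below the genes marked in black, none of which passed after adjustment. Those are Basp1, Nptxr, Cmtm8, Anxa1 and Il33, from the genes with the smallest p in each direction, and Scd, 94th by p. The isolated grey point at the far right is a probe set with no gene listed.

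No probe set was called between the pooled doses either. Between 0.55 and 0.05 mg/kg 0 probe sets (0%) passed the adjusted threshold in limma, with 1076 at an unadjusted p under 0.05. Cyp1a1 differed by 0.06 (limma unadjusted p = 0.751) and Cyp1a2 by 0.03 (limma unadjusted p = 0.648). Set against 0.05 mg/kg alone, 5.50 mg/kg again gave 0 called probe sets, with 1502 at an unadjusted p under 0.05, and against 0.55 mg/kg alone it gave 0 and 920.

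The 18 arrays correlated closely with each other. Correlations between arrays ran from 0.991 to 0.996 within 5.50 mg/kg, from 0.989 to 0.996 within the low doses and from 0.990 to 0.996 between them, and no 2 columns were identical. The 3′ minus 5′ difference of the control transcripts, which grows as RNA degrades, overlapped between the groups. Actin ran from 1.07 to 1.60 at 5.50 mg/kg and from 1.14 to 1.41 at the low doses. Gapdh ran from -0.25 to 0.02 and from -0.20 to -0.05, and hexokinase from 1.02 to 1.57 and from 1.09 to 1.66. The highest value came from 5.50 mg/kg for actin and gapdh and from the low doses for hexokinase. Hepatocyte markers (Alb, Apoa1, Ttr and others, 12 of 13 measured) had mean log2 values of 13.43 to 13.49 at 5.50 mg/kg and 13.41 to 13.49 at the low doses, and the marker list did not separate the groups.

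The AhR battery, with the CYP1A genes counted in it, showed no common direction at 5.50 mg/kg. Of 13 AhR targets listed, 9 were measured, 5 with positive and 4 with negative differences, 0 of them called, and 1 (Cyp1a2) had an unadjusted p under 0.05. Their median difference was 0.06, beside -0.0043 over all 14217 genes with 1 probe set each. It ran from -0.0010 to 0.08 when each array was left out in turn and was -0.0080 against 0.55 mg/kg alone, so its sign was not stable. With arrays left out, it was negative only without replicate 4 at 5.50 mg/kg. Cyp1b1, the third CYP1 enzyme, whose promoter above has 2 cores, averaged 5.06 ± 0.14 (SD, n = 6) at 5.50 mg/kg and 4.98 ± 0.078 (SD, n = 12) at the low doses. Nqo1, a quinone reductase that both AhR and NRF2 induce, averaged 7.40 ± 0.25 and 7.34 ± 0.24 on the same arrays. Ahrr, the repressor that the AhR induces against itself and the promoter with the most cores of those shown, averaged 3.03 ± 0.17 and 3.16 ± 0.23, close to the floor of the array in both groups. Tiparp, a mono-ADP-ribosyltransferase that also restrains the AhR, differed by 0.06 ± 0.09 (SE), and the aldehyde dehydrogenase Aldh3a1 by -0.12 ± 0.07 (SE). Serpinb2, a protease inhibitor, and Cyp2s1, an extrahepatic CYP, each differed by -0.06 ± 0.08 (SE). Aldh3a1 and Serpinb2 were also dim, with means of 3.22 and 2.41 at 5.50 mg/kg. At 550 mg/kg against vehicle Cyp1b1, Tiparp, Ahrr, Aldh3a1, Serpinb2 and Cyp2s1 were not called either, with differences from -0.24 to 0.19. The lack of a call for these genes at 5.50 mg/kg therefore cannot show whether the AhR responds at that dose.

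Components of the AhR pathway itself were close to the low-dose levels. Of 10 components 8 were measured, 5 positive and 3 negative, with 0 called and a median difference of 0.01. The receptor Ahr averaged 4.76 ± 0.43 (SD, n = 6) at 5.50 mg/kg and 4.74 ± 0.26 (SD, n = 12) at the low doses. Its highest value among these 18 arrays, 5.52, came from replicate 1 at 5.50 mg/kg, the array that also had the highest Cyp1a1. Its partner Arnt differed by 0.09 ± 0.07 (SE), and the chaperones Hsp90ab1 and Ptges3 (p23) by 0.0020 ± 0.08 and 0.04 ± 0.04 (SE). The largest difference in the list was that of Arnt2, a paralogue of Arnt known mainly from brain and kidney, at -0.14 ± 0.08 (SE; limma unadjusted p = 0.0748). The second probe set of Arnt2 differed by 0.04. The coregulators Ncoa1 and Nrip1 differed by -0.02 ± 0.06 and 0.07 ± 0.10 (SE). None of these intervals excluded 0.

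Genes with the smallest p are given because the question is whether anything begins at this dose. None passed the adjusted threshold. A difference from the low doses is not by itself a difference from vehicle, against which 5.50 mg/kg was not tested. RT1-CE10 averaged 7.83 at 5.50 mg/kg, 7.77 at vehicle and 7.40 at the low doses, and Nptxr 4.16, 4.24 and 4.48. At vehicle Basp1 stood nearer the low doses, with 4.70, 5.06 and 5.15 in the same order, as did Tvp23a with 3.81, 3.55 and 3.54. Only 4 of 31042 probe sets (0.0129%) separated all 6 arrays at 5.50 mg/kg from all 12 low-dose arrays. Basp1 lay below the low-dose arrays, and Zmynd8, Slc44a1 and Atp8b1 lay above them. Basp1, a membrane-bound protein of growth cones that also acts as a transcriptional corepressor, read 4.45, 4.81, 4.70, 4.77, 4.67 and 4.76 at 5.50 mg/kg, against 5.35, 5.36, 5.24, 5.46, 5.07 and 5.07 at 0.05 mg/kg and 5.01, 4.92, 5.38, 4.94, 5.17 and 4.86 at 0.55 mg/kg. It had the smallest p of the table, a difference of -0.46 ± 0.09 (SE; limma unadjusted p = 3.12e-05, adjusted p = 0.869). At 55 mg/kg it was higher by 0.46 than at 5.50 mg/kg, which was not called, and stood 0.0046 from the low-dose mean, so the lower level was seen at 5.50 mg/kg and not at the dose above. Its second probe set differed by -0.09.

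Zmynd8, a chromatin reader, ranged from 6.10 to 6.30 at 5.50 mg/kg and from 5.76 to 6.09 at the low doses, a difference of 0.20 ± 0.05 (SE). Slc44a1, a choline transporter, ranged from 7.02 to 7.19 at 5.50 mg/kg and from 6.59 to 7.02 at the low doses, a separation smaller than the printed precision. Atp8b1, the canalicular phospholipid flippase, ranged from 6.88 to 7.17 and from 6.25 to 6.87 in the same groups, and is named after its values were seen. All 3 had adjusted p = 0.9997 in limma. The second probe set of Zmynd8 differed by 0.04, and the 3 probe sets of Slc44a1 by 0.14 to 0.24. Vehicle arrays (n = 5) ran from 5.81 to 6.38 for Zmynd8, with a mean of 6.09. For Slc44a1 they ran from 6.68 to 7.08, with a mean of 6.89. Both vehicle ranges overlapped the arrays at 5.50 mg/kg and at the low doses.

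The other genes with the smallest p among those higher at 5.50 mg/kg had small differences. Cmtm8, a MARVEL-domain membrane protein, was at 8.96 to 9.27 at 5.50 mg/kg and at 8.77 to 9.04 at the low doses, a difference of 0.25 ± 0.06 (SE), while its second probe set differed by -0.04. Il33, an alarmin cytokine, had the largest difference of the 10, 0.50 ± 0.14 (SE), and both of its probe sets were positive (0.44 and 0.50). Its arrays read 8.35 to 8.82 at 5.50 mg/kg and 7.53 to 8.66 at the low doses, so the groups overlapped. RT1-CE10, a rat class I MHC gene, differed by 0.43 ± 0.12 (SE). It belongs to a family of near-identical copies that a probe set may not tell apart. The Golgi trafficking gene Tvp23a (0.27), the zinc finger gene Zik1 (0.30), the kidney ion cotransporter Slc12a1 (0.18), the centriole-associated gene Spatc1 (0.26) and the kinase family gene Adck5 (0.18) completed the set. Tvp23a, Slc12a1 and Spatc1 are dim here, with mean log2 values from 2.60 to 3.81 at 5.50 mg/kg.

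The 10 genes with the smallest p among those with negative differences had varied known roles, and none was called. Sparc, a collagen-binding matrix glycoprotein, averaged 6.88 ± 0.18 (SD, n = 6) at 5.50 mg/kg and 7.25 ± 0.23 (SD, n = 12) at the low doses, with both probe sets negative (-0.37 and -0.32). Col4a1, a basement membrane collagen, averaged 6.82 ± 0.23 and 7.14 ± 0.16 in these groups. Anxa1, a phospholipid-binding anti-inflammatory protein, had the largest difference of the 10, -0.70 ± 0.19 (SE), with arrays at 6.10 to 7.28 at 5.50 mg/kg and 6.68 to 8.11 at the low doses. Replicate 1 at 5.50 mg/kg was the lowest of the 18 arrays for both Anxa1 and Col4a1. App, the amyloid precursor, was lower in all 3 of its probe sets, by -0.27 to -0.23. Ptgds, a prostaglandin D synthase (-0.40), Nptxr, a neuronal pentraxin receptor (-0.32, but 0.03 on its second probe set), Fhod1, an actin-organising formin (-0.31), Zfyve9, which anchors SMADs to the TGF-beta receptor (-0.24), and Arih2, a ubiquitin ligase (-0.19, with its 3 probe sets from -0.19 to -0.02), were the rest. The limma adjusted p was 0.869 for Nptxr and 0.9997 for the others.

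**Figure D3:**
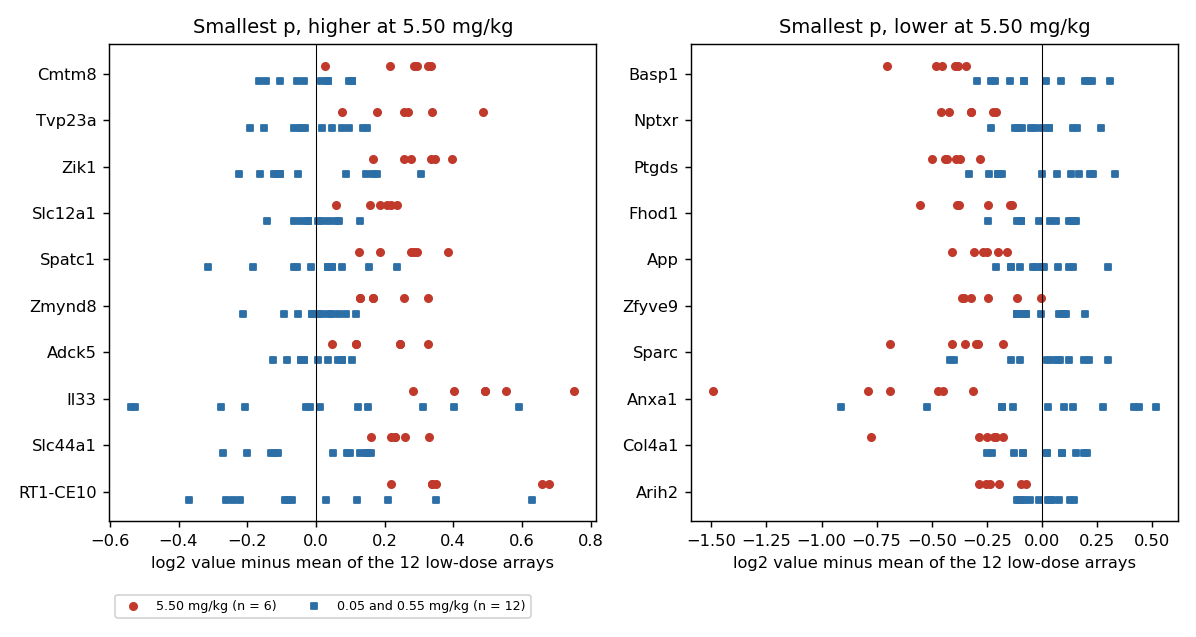
Single-array log2 values of the 10 genes with the smallest p in each direction, each minus the mean of its 12 low-dose arrays, with arrays at 5.50 mg/kg as red circles above those at 0.05 and 0.55 mg/kg as blue squares. The groups lie apart but close for Basp1, Zmynd8 and Slc44a1 and overlap for the other 17 genes, none of which passed after adjustment.

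Gene lists for liver pathways and cell types were read by counts and medians, with no test of a list. They held 28 lists with 422 measured members of 495 named. No member of any list was called, against the background of 0%. At an unadjusted p under 0.05 the background was 1.8% of probe sets higher and 2.14% lower.

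Stellate cell markers had the lowest median. All 11 were measured, 9 with negative and 2 with positive differences, and the median was -0.18, beside -0.0043 over all genes. Of the 11, 4 were lower at an unadjusted p under 0.05. These were the fibrillar collagens Col3a1 (-0.39 ± 0.12, SE) and Col1a2 (-0.60 ± 0.21), the matrix proteoglycan Dcn (-0.66 ± 0.26) and the matrix protein Ecm1 (-0.20 ± 0.08), each with an adjusted p of 0.9997 in limma. Col3a1 read 10.20, 10.79, 10.70, 10.87, 10.68 and 10.52 at 5.50 mg/kg, against 10.71 to 11.42 at the low doses. Dcn read 5.44 to 6.49 at 5.50 mg/kg and 5.38 to 7.68 at the low doses, a spread within the low doses wider than the difference. Lrat, the retinol-storing enzyme that defines quiescent stellate cells, differed by -0.06 ± 0.09 (SE), Des by -0.12 ± 0.06, and Acta2, a mark of their activation, by 0.06 ± 0.09.

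The mean of the 11 markers was 6.86, 7.25, 7.16, 7.20, 7.07 and 7.09 at 5.50 mg/kg, against 7.50, 7.52, 7.02, 7.64, 7.58 and 7.19 at 0.05 mg/kg and 7.07, 7.37, 7.61, 7.29, 7.16 and 7.16 at 0.55 mg/kg. Arrays at 5.50 mg/kg thus sat within the range of those at 0.55 mg/kg except for replicate 1, and vehicle arrays ran from 6.93 to 7.58. In bulk tissue fewer cells of a type and less RNA per cell cannot be told apart. Sparc and Col4a1 differed in the same direction as these markers, and the part of the tissue's makeup in their differences was not tested. When each array was left out in turn the median stayed between -0.21 and -0.14, and the number lower at an unadjusted p under 0.05 ran from 2, without replicate 1 at 5.50 mg/kg, to 6, without replicate 3 at 0.05 mg/kg or replicate 5 at 0.55 mg/kg. Against 0.55 mg/kg alone 1 of the 11 was lower at that level, and against 0.05 mg/kg alone 5.

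Pericentral hepatocyte genes had the highest median. Of 14 genes 13 were measured, 11 with positive and 2 with negative differences, and the median was 0.12. At an unadjusted p under 0.05, 4 were higher, namely the WNT target Axin2 (0.24 ± 0.08, SE), the ornithine aminotransferase Oat (0.33 ± 0.13), the R-spondin receptor Lgr5 (0.13 ± 0.05) and Cyp1a2. Cyp1a2 stands on this list as well as among the AhR targets. Axin2 read 6.47, 6.53, 6.22, 6.38, 6.79 and 6.40 at 5.50 mg/kg, against 6.01 to 6.42 at the low doses. Oat read 11.04, 11.08, 10.68, 11.05, 11.07 and 10.88 at 5.50 mg/kg, against 10.12 to 11.13 at the low doses. The glutamine synthetase Glul, the textbook pericentral marker, differed by 0.05 ± 0.06 (SE), Cyp2e1 by 0.07 ± 0.04 and the transcription factor Tbx3 by 0.25 ± 0.12.

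The mean of the 13 genes was 10.27, 10.19, 10.09, 10.24, 10.26 and 10.15 at 5.50 mg/kg, against 9.97 to 10.23 at the low doses, where 1 array at 0.05 mg/kg had the 10.23. At 5.50 mg/kg 3 of the 6 arrays lay above all 12 low-dose arrays and the other 3 lay within their range. Vehicle arrays ran from 9.94 to 10.13 and arrays at 55 mg/kg from 9.96 to 10.36. Leaving out each array in turn kept the median between 0.07 and 0.13, with 3 to 5 genes higher at an unadjusted p under 0.05, but set against 0.55 mg/kg alone 0 of the 13 passed that level. Cyp1a2 itself was the median gene of this list, with 6 of the 13 above it and 6 below. Periportal genes (15 of 15 measured) had 9 positive and 6 negative differences and a median of 0.03.

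Most fatty acid synthesis genes had negative differences, the largest that of Scd. All 20 were measured, 15 negative and 5 positive, with a median of -0.09. At an unadjusted p under 0.05, Scd and the triglyceride-forming Dgat1 (-0.10 ± 0.05, SE) were lower, and the acyltransferase Agpat2 (0.23 ± 0.10) was higher. Scd, the stearoyl-CoA desaturase, read 10.88, 9.96, 9.38, 10.54, 8.35 and 8.03 at 5.50 mg/kg, against 9.83 to 11.44 at the low doses. Only replicates 3, 5 and 6 at 5.50 mg/kg lay below all low-dose arrays, and the SD was 1.16 at 5.50 mg/kg (n = 6) and 0.53 at the low doses (n = 12). The difference was -1.12 ± 0.34 (SE; limma unadjusted p = 0.00391, adjusted p = 0.9997). It ran from -1.39 to -0.82 when each array was left out in turn. Vehicle arrays of Scd averaged 10.3 (9.38 to 10.98, n = 5), between 9.52 at 5.50 mg/kg and 10.64 at the low doses. Arrays at 55 mg/kg averaged 10.1 (9.01 to 10.77, n = 6). The lipogenic genes Fasn (-0.16 ± 0.21), Acly (-0.25 ± 0.23), Acaca (-0.26 ± 0.15) and Srebf1 (-0.22 ± 0.19) had SEs of about the size of their differences or somewhat less. With 1 array left out the median of the list ran from -0.15 to 0.01 and the number of negative genes from 9 to 16, and the median was positive only without replicate 6 at 5.50 mg/kg.

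Receptor pathways for foreign compounds and fatty acids showed medians close to 0. The CAR and PXR targets, which include the phenobarbital-type CYPs, had 24 of 27 genes measured, 12 positive and 12 negative, with a median of 0.0018 and 0 at an unadjusted p under 0.05. Cyp3a23-3a1, the main rat PXR target, differed by 0.06 ± 0.09 (SE). PPARalpha targets, the genes of peroxisomal and mitochondrial fatty acid oxidation, had 37 of 42 measured, 23 positive and 14 negative, with a median of 0.0089. NRF2 and glutathione genes, the oxidative stress battery, had 26 of 31 measured, 10 positive and 16 negative, with a median of -0.04. The smallest p among them was that of the aldo-keto reductase Akr7a3, -0.29 ± 0.14 (SE; limma unadjusted p = 0.0542).

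Other lists had a single member or none at an unadjusted p under 0.05. Cyp8b1, which sets the cholic acid share of bile acids, was at 11.24 to 11.63 at 5.50 mg/kg and 11.03 to 11.35 at the low doses, a difference of 0.20 ± 0.06 (SE; limma unadjusted p = 0.00372), in a bile acid list of 18 with a median of 0.02. The death receptor Fas (0.28 ± 0.11) led the p53 targets, the thyroid hormone transporter Slc16a10 (0.33 ± 0.16) the thyroid list, and the steroid enzyme Hsd3b5 (0.14 ± 0.06) the male-biased genes. The ER protein disulfide isomerase Pdia4 (0.12 ± 0.05) led the endoplasmic reticulum stress list. The replication helicase subunit Mcm3 (-0.17 ± 0.08), the small heat shock protein Cryab (-0.34 ± 0.12) and the immediate early gene Fosb (-0.17 ± 0.08) led theirs. The lists of cholesterol synthesis, glucose metabolism, acute phase and circadian clock genes had 0 members at that level and medians from -0.04 to 0.04. The 3 probe sets of Fas differed by -0.02 to 0.28. Vehicle means of Slc16a10 (6.22) and Fosb (2.79) stood near those at 5.50 mg/kg (6.23 and 2.79). Those of Fas (6.61), Pdia4 (11.646) and Hsd3b5 (12.325) also stood nearer 5.50 mg/kg (6.69, 11.675 and 12.383) than the low doses (6.41, 11.558 and 12.244). The vehicle mean of Cyp8b1 (11.17) stood nearer the low-dose mean (11.22) than the mean at 5.50 mg/kg (11.42). So did those of Mcm3 (5.10, with 5.09 at the low doses and 4.92 at 5.50 mg/kg) and Cryab (6.55, with 6.47 and 6.13).

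Among markers of other cell types 1 gene had an unadjusted p under 0.05. The cholangiocyte keratin Krt19 differed by -0.42 ± 0.11 (SE; limma unadjusted p = 0.00151, adjusted p = 0.9997), reading 5.02 to 5.78 at 5.50 mg/kg and 5.42 to 6.10 at the low doses. The other 6 measured markers of that list lay between -0.04 and 0.06. The lists of Kupffer cell, endothelial, lymphocyte, neutrophil and red blood cell markers had medians of 0.07, -0.0064, 0.02, -0.05 and -0.09, with 0 members at an unadjusted p under 0.05.

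**Figure D4:**
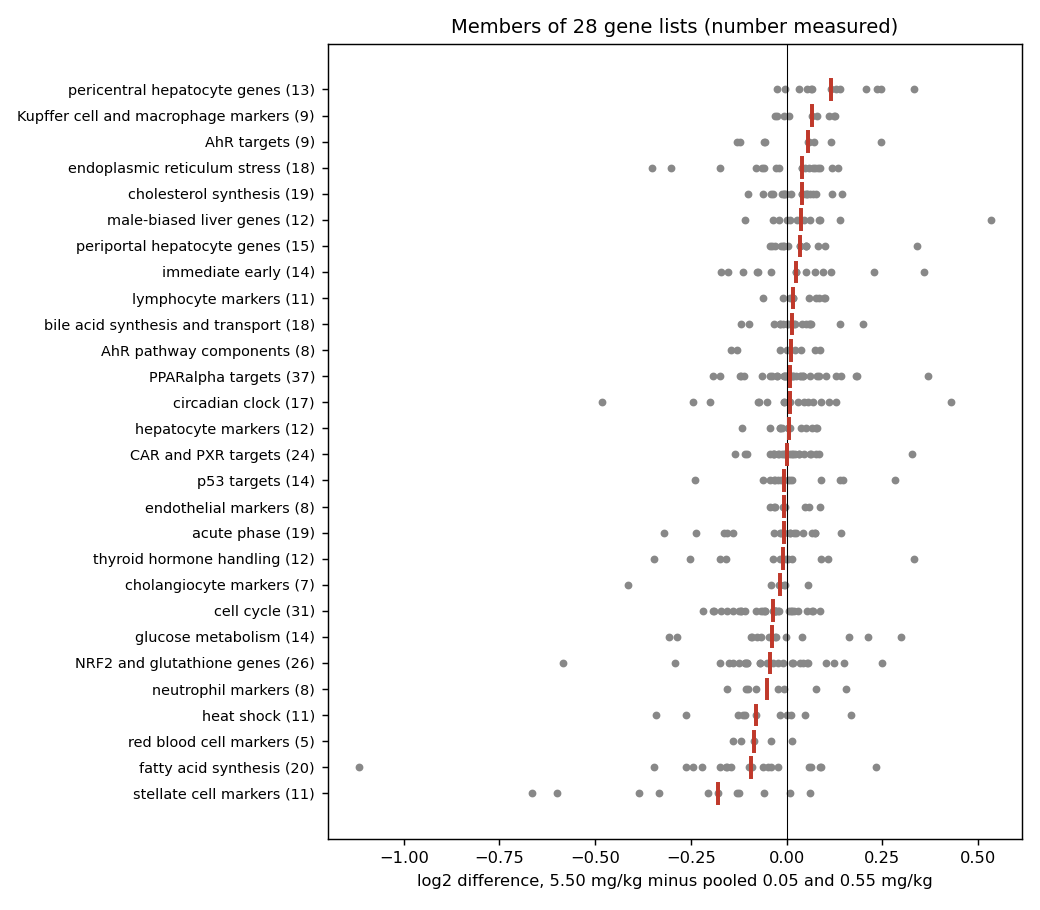
Differences of 5.50 mg/kg from the pooled 0.05 and 0.55 mg/kg arrays (log2) for every measured member of 28 gene lists, as grey points, with each list's median as a red bar and lists ordered by median. Medians run from 0.12 for pericentral hepatocyte genes down to -0.18 for stellate cell markers, and no single point passed after adjustment.

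Genes that responded at the top dose were then read at 5.50 mg/kg. The list was chosen on the 550 mg/kg and vehicle arrays, none of which enter the comparison of 5.50 mg/kg with the low doses. At 550 mg/kg 27 probe sets were called higher (0.087% of those tested) and 14 lower (0.0451%), and at 55 mg/kg against vehicle 2 were called (0.00644%), Cyp1a1 and Cyp1a2. Of the 27, 22 had positive and 5 negative differences at 5.50 mg/kg, with a median of 0.03 that was also 0.03 without the CYP1A genes. Over all probe sets 49.0% of differences were positive. The members are not independent, since 3 of the probe sets belong to Acot2 and 2 to Sord. At an unadjusted p under 0.05, where 1.8% of all probe sets were higher and 2.14% lower, 2 of the 27 were higher. These were Cyp1a2 and the glycine acyltransferase-like gene Glyatl2 (0.22 ± 0.08, SE; limma unadjusted p = 0.0142), and 0 of the 27 were called. Of the 14, 5 were positive and 9 negative with a median of -0.04, and 1, the aminoacylase Acy3 (-0.16 ± 0.08, SE; limma unadjusted p = 0.0467), was lower at an unadjusted p under 0.05.

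Genes with the largest changes at the top dose overlapped the low-dose arrays at 5.50 mg/kg. Gsta3, a glutathione transferase that rose by 1.79 at 550 mg/kg, differed by 0.25 ± 0.22 (SE) at 5.50 mg/kg, where its arrays read 7.15 to 7.95 against 6.19 to 8.11 at the low doses. Nqo1 rose by 1.76 at 550 mg/kg and differed by 0.06 ± 0.11 (SE) at 5.50 mg/kg. The peroxisomal enzyme Ehhadh rose by 1.07 at 550 mg/kg and differed by 0.0023 ± 0.10 (SE) at 5.50 mg/kg, and the acyl-CoA thioesterase Acot2 rose by 1.06 and differed by 0.02 ± 0.10 (SE). Among the genes lower at the top dose, the protease inhibitor A2m fell by 1.61 at 550 mg/kg and differed by -0.32 ± 0.18 (SE) at 5.50 mg/kg, with arrays of 8.75 to 9.48 against 8.89 to 10.10 at the low doses. The retinoid-binding Rbp7 differed by -0.07 ± 0.10, the apolipoprotein Apoa4 by -0.05 ± 0.09, the matrix protein Comp by 0.05 ± 0.14 and the retinol dehydrogenase Rdh5 by 0.04 ± 0.07 (SE). Each of these 9 intervals at 5.50 mg/kg included 0.

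**Figure D5:**
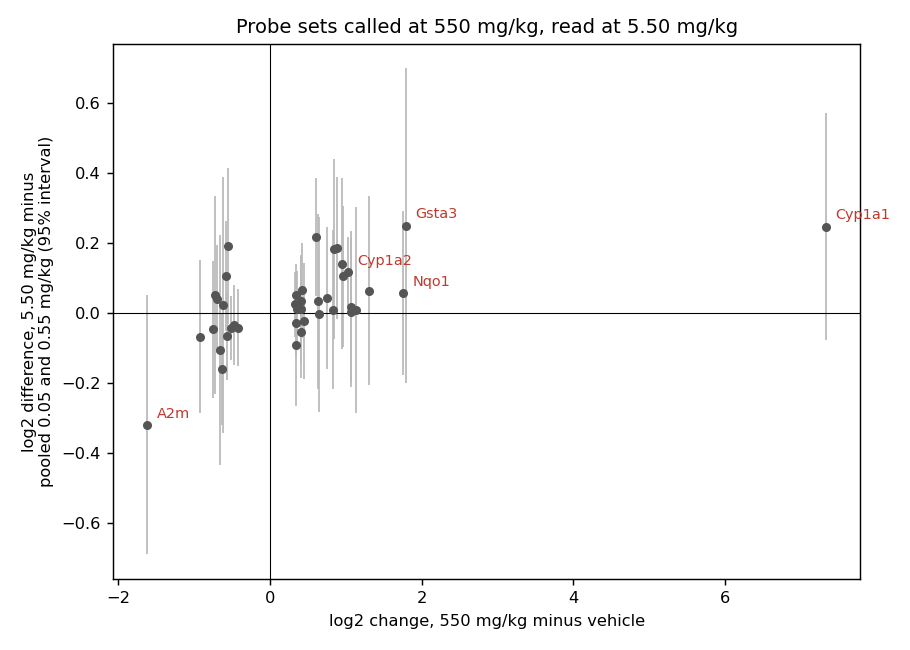
Probe sets called at 550 mg/kg against vehicle, with their change there (x, log2) and their difference at 5.50 mg/kg from the pooled 0.05 and 0.55 mg/kg arrays (y, log2, with 95% intervals). Cyp1a1 lies far to the right at 7.34 on the x axis and at 0.25 on the y axis, and the others sit in a band from -0.32 to 0.25 whatever their change at 550 mg/kg.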

How the data were processed

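Liver RNA for 35 arrays was labelled with biotin and read in a single colour by Affymetrix, and the deposited table holds log2 values, which the authors summarised from the scans by RMA using affy (per the submitters' processing notes). Neither their versions nor the probe set definitions were stated in the labels. Of 31099 probe sets 57 AFFX controls were left out, which left 31042. The platform annotation gave 20826 a single gene symbol, 436 several and 9780 none, and 20758 matched the RefSeq gene table. Linear models came from limma 3.58.1 under R 4.3.3 (lmFit, eBayes, two-sided, Benjamini-Hochberg over all probe sets, threshold 0.05). The comparison of 5.50 mg/kg with the low doses used 18 arrays and 2 means. The low doses were compared with each other, and each with 5.50 mg/kg, on those arrays with 3 means, and 55 mg/kg was compared on 24 arrays with 3 means. The 550 and 55 mg/kg comparisons with vehicle used only those arrays. Exact permutation tests over arrays were run for Cyp1a1 and Cyp1a2. A listed gene was represented by its brightest probe set and a gene named for its p by that with the smallest p. Genes named were Cyp1a1, Cyp1a2, the AhR lists, the 10 smallest p in each direction, the smallest p of each list, and the largest responders at other doses, and further list members are given for their known roles. The comparison, members and lists were chosen with earlier results of these data known. Replicates are separate arrays whose labels do not identify animals beyond that, so p-values measure the spread between these samples, and precision is limited by how many arrays there are. The fits were tested on simulated data. Alternatives were other normalisations, filters, variance models, sample sets and left-out arrays. The authors' own comparison of each dose with vehicle was not used here. Figures were drawn with matplotlib 3.10.9 in Python 3.11.15.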

Additional observations from a re-analysis of the deposited data

Results flagged for a closer look

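Single arrays that stood apart from the other 5 of their dose were looked for in 69 named genes and 3 doses, and 7 of the 207 gene and dose pairs (3.38%) had one, where chance gives about 1 in 20. They came from 7 different arrays. Aldh3a1 was 2.96 in replicate 4 at 5.50 mg/kg, the lowest, with the others at 3.19 to 3.32. Col4a1 was 6.36 in replicate 1 at 5.50 mg/kg, the lowest, with the others at 6.85 to 6.96. Cyp2s1 was 5.16 in replicate 3 at 0.55 mg/kg, the highest, with the others at 4.67 to 4.80. Akr7a3 was 10.59 in replicate 6 at 0.55 mg/kg, the lowest, with the others at 11.28 to 11.64. Mcm3 was 4.78 in replicate 4 at 0.55 mg/kg, the lowest, with the others at 5.03 to 5.18. Sds was 7.64 in replicate 3 at 0.05 mg/kg, the highest, with the others at 5.71 to 6.37. Cd3d was 4.42 in replicate 2 at 0.05 mg/kg, the highest, with the others at 4.08 to 4.18.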

How the results depend on the processing

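The count of probe sets called at 5.50 mg/kg against the low doses was 0 in all 33 alternatives, with 30 to 1502 at an unadjusted p under 0.05, lowest when a 1.5-fold difference was also required and highest against 0.05 mg/kg alone. The smallest adjusted p in limma, that of Basp1, was 0.0612 with all 35 arrays in the fit. Cyp1a1 ran from 0.10 to 0.34 with 1 array left out and from 0.18 to 0.28 otherwise, and Cyp1a2 from 0.096 to 0.134 and from 0.10 to 0.13. Between 55 and 5.50 mg/kg the count stayed 2, and between 0.55 and 0.05 mg/kg 0, in all 5 alternatives. Replicate numbers did not pair the arrays: 6 of 18 same-numbered pairs correlated over 0.1 and 1 of 18 arrays correlated best with its own number. With the replicate block, 0 probe sets were called and 1179 had an unadjusted p under 0.05, and Cyp1a1 and Cyp1a2 differed by 0.2459 and 0.1159. Of 2062 settings for 67 other genes 40 turned the sign of an uncalled difference, and the cause was not tested. Against 0.05 mg/kg alone Cyp2s1 was 0.05744, Hsp90ab1 -0.04986, Ehhadh -0.04415, Acot2 -0.05893 and Apoa4 0.05519, and against 0.55 mg/kg alone Tiparp was -0.008039. With array weights Ahr was -0.03657, Hsp90ab1 -0.03472 and Ehhadh -0.01789, and with cyclic loess Hsp90ab1 was -0.005982 and Ehhadh -0.006046. With 1 array left out Nqo1 ran from -0.001035 to 0.1234, Ahr from -0.1302 to 0.09286, Hsp90ab1 from -0.03989 to 0.02993, Ncoa1 from -0.04363 to 0.01095, Ehhadh from -0.04426 to 0.05004, Acot2 from -0.01292 to 0.06788 and Comp from -0.03908 to 0.1171. The list medians under other settings were computed after seeing the data.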

Other observations

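The largest difference of the table, picked after its value was seen, was that of a probe set with no gene listed. It was 3.05 ± 0.83 (SE; limma adjusted p = 0.9997). Its arrays fell into a high and a low set rather than a graded series, with values over 7 in 5 of 5 vehicle arrays, 2 of 6 at 0.05 mg/kg, 2 of 6 at 0.55 mg/kg, 6 of 6 at 5.50 mg/kg, 4 of 6 at 55 mg/kg and 4 of 6 at 550 mg/kg. The next largest differences of probe sets with a gene symbol, taken by size after the values were seen and leaving out Scd, were those of Efemp1 (-1.14 ± 0.36, SE), AA926063 (0.97 ± 0.31), Lum (-0.88 ± 0.47), Prlr (0.87 ± 0.33) and Zfp354a (-0.87 ± 0.51). The 95% intervals of Lum and Zfp354a included 0, and each of the 5 had an adjusted p of 0.9997 in limma.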
